A study of Homo sapiens with 24 samples.

Results

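The antiviral interferon-stimulated genes are 47 genes of the 58735 in the deposited count table, taken by name from a fixed list of IFIT, OAS, MX and IFITM proteins, the ISG15 system, TRIM and PML body proteins and other effectors that cells make when interferon reaches them. Their levels were followed in 2 established human lines of diffuse large B cell lymphoma, SU-DHL-4 and OCI-Ly18, both marked with GFP. Tumour cells were kept for 72 h with tazemetostat (TAZ), an inhibitor of the histone methyltransferase EZH2, at 500 nM, or with the solvent DMSO. They were then cultured for 48 h, with the drug or solvent kept in, together with CART19 cells or with UTD cells. CART19 cells are T cells carrying a chimeric antigen receptor, and the labels do not spell out UTD. In each line the groups are therefore TAZ with CART19, DMSO with CART19, TAZ with UTD and DMSO with UTD, with 3 bulk RNA libraries each and 24 in all. Viable GFP-positive cells were sorted before RNA extraction, so the CART19 libraries hold the tumour cells that were alive after the culture. The labels do not say whether the 3 libraries of a group came from separate cultures, so the p-values measure the spread between libraries, which may be technical.

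Interferons are secreted proteins that warn cells of infection. Type I interferons act through STAT2 and IRF9, part of a complex that binds an interferon-stimulated response element (ISRE) in promoters, and interferon gamma, a product of activated T cells, acts mainly through a gamma-activated site (GAS), and through IRF1. Many of the genes described here answer to both kinds of interferon. Their proteins help to cut viral RNA, block its translation, hold back membrane fusion or budding, or tag proteins with ISG15. EZH2 places a methyl mark on histone H3 that keeps genes silent, and tazemetostat lowers that mark.

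Promoter sequences were available for 38 of the 47 members (RefSeq, GRCh38.p14, 250 bases before and 50 bases after each start site). The ISRE core, written GAAANNGAAA and searched on both strands, stood in at least 1 of these windows for 26 of the 38 members (68.4%), and in 4.38% of all 27305 genes with an entry. The GAS, written TTCNNNGAA, reads the same on both strands in its fixed letters and stood in 10 of the 38 members (26.3%) and in 9.38% of all genes. No entry was used for TRIM22, OAS2, USP18, PML, IFITM2, MX2, ETV7, IFIT2 and OASL. Printed here are stretches upstream of the start site for 7 members on which the results turn. IFI44L, LGALS3BP and EPSTI1 were among the largest increases with CART19 cells, and ISG15 is the tag of the ubiquitin-like system. IFIT3 and IFIT5 had 0 counts in the DMSO UTD libraries of SU-DHL-4, and HERC5 had 0 counts in every library of that line. Capitals mark matches to the ISRE core, which on the opposite strand read TTTCNNTTTC, and overlapping matches run together.
IFI44L: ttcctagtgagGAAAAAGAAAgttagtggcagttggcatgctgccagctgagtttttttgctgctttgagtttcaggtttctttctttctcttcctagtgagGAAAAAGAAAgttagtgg
LGALS3BP: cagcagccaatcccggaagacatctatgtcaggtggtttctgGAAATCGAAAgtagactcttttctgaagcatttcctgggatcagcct
EPSTI1: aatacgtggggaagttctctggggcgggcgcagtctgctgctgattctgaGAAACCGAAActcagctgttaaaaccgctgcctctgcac
ISG15: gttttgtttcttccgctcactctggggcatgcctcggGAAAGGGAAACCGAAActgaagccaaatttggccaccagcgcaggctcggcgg
IFIT3: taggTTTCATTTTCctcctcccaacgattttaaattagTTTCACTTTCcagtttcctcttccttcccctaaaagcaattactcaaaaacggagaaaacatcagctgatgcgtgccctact
IFIT5: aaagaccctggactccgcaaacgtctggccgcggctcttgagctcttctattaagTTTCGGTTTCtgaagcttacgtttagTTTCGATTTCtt
HERC5: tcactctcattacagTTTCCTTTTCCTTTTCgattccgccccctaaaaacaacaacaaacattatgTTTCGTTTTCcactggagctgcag
On GRCh38.p14 these stretches lie on the minus strand for LGALS3BP (chr17:78979935-78980023) and EPSTI1 (chr13:42992253-42992341). They lie on the plus strand for IFI44L (chr1:78620273-78620392), ISG15 (chr1:1013347-1013436), IFIT3 (chr10:89327837-89327956), IFIT5 (chr10:89414468-89414560) and HERC5 (chr4:88456979-88457068). A match describes letters only and does not show that a factor binds there.

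Libraries held 14783781 to 20148891 counts, and levels are given as CPM, a gene's count scaled to the total of its library. The summed level of 16 T cell markers was not raised by CART19 cells. In SU-DHL-4 it was 24.7 to 26.2 CPM with TAZ and CART19 against 29.3 to 30.9 CPM with TAZ and UTD, and 42.9 to 45.3 CPM with DMSO and CART19 against 43.7 to 44.1 CPM with DMSO and UTD. In OCI-Ly18 it was 81.2 to 89.1 CPM with TAZ and CART19 against 108 to 114 CPM with TAZ and UTD, and 81.2 to 88.3 CPM with DMSO and CART19 against 93.4 to 102 CPM with DMSO and UTD. Fewer of the 16 markers had 0 counts with CART19 than with UTD cells in each pair of groups. In SU-DHL-4 these were 4 against 7 with TAZ and 8 against 12 with DMSO. In OCI-Ly18 they were 3 against 9 with TAZ and 4 against 6 with DMSO. With DMSO and UTD in SU-DHL-4, 12 of the 16 had 0 counts, so the sum there came from the other markers. Of 4 T cell markers tested in each line, GZMB, a granule protease of killer cells, was the one called higher with CART19 cells, in SU-DHL-4 under both pretreatments. It had 39 counts with TAZ and CART19 and 21 with DMSO and CART19 there, 19 and 20 in OCI-Ly18, and 0 in every UTD library. Under tazemetostat, 1 of the 4 tested T cell markers was lower with CART19 cells in SU-DHL-4, and 2 were lower in OCI-Ly18. Of 6 monocyte and NK cell markers, CSF1R was called higher with CART19 cells under tazemetostat in both lines, with 48 counts in TAZ CART19 libraries of SU-DHL-4 against 7 in its TAZ UTD libraries, and 45 against 6 in OCI-Ly18. In OCI-Ly18, 1 of the 2 tested markers of this list was lower with CART19 cells under each pretreatment. The 6 markers summed there to 11.8 to 14.7 CPM with TAZ and CART19 against 19.5 to 23.3 CPM with TAZ and UTD. Under DMSO they summed to 8.02 to 11.4 CPM with CART19 against 12.8 to 17.3 CPM with UTD cells. In SU-DHL-4 they summed to at most 1.47 CPM in a library. The part of RNA from these cells in the results was not tested. IFNG, the interferon that T cells secrete, had 77 counts over the TAZ CART19 libraries of SU-DHL-4 and 16 over the DMSO CART19 libraries, against 5 with TAZ and UTD and 0 with DMSO and UTD. These libraries were uneven: summed over 22 interferon genes, the TAZ CART19 libraries of SU-DHL-4 held 16 to 47 counts each. In OCI-Ly18 the 22 genes had 77 counts with TAZ and CART19 and 46 with DMSO and CART19. IFNG did not pass there for the drug with CART19 cells (log2 fold change 0.65). EZH2 itself was slightly lower with tazemetostat in each line, with log2 fold changes between -0.28 and -0.19.

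CART19 cells raised nearly the whole set in both lines. In SU-DHL-4 under DMSO, 39 of the 47 members were higher with CART19 cells than with UTD cells and 0 were lower, where 4.62% of all tested genes were higher and 3.18% lower (edgeR quasi-likelihood test, adjusted p under 0.05 over all tested genes). In that comparison 2 tested members did not pass and 6 had too few counts to be tested. In OCI-Ly18 under DMSO the counts were 39 higher and 0 lower (background 6.27% and 4.75%), with 5 that did not pass and 3 not tested. Under tazemetostat they were 38 and 0 in SU-DHL-4 (background 6.66% and 7.86%) and 41 and 0 in OCI-Ly18 (background 8.33% and 5.05%). In the last of these, upper quartile scaling gave 1053 genes higher and 1175 lower over all genes, against 1372 and 832 with TMM, and left the members at 41 and 0. DESeq2 also called 0 members lower in each of these comparisons, and 1 member was lower at an unadjusted p under 0.05, in OCI-Ly18 under DMSO. The median log2 fold change over the tested members was 2.22 in SU-DHL-4 and 1.66 in OCI-Ly18 under DMSO, and 2.07 and 1.83 under tazemetostat, where the medians over all tested genes lay between -0.0079 and -0.0027. A ± after a log2 fold change is its standard error throughout, and a ± after CPM is the SD of 3 libraries. In bulk RNA, a change in the share of cells that express a gene and a change in RNA per cell cannot be told apart.

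Members that were already read without CART19 cells rose too. Of the 20 members with at least 10 counts in every DMSO UTD library of SU-DHL-4, 19 were higher with CART19 cells, and in OCI-Ly18 29 of 32 were. How many of all genes at that minimum were higher was not computed. Under DMSO the lines shared 35 of their higher members, which is 89.7% of the 39 in each line. With 39 of 41 tested members called in SU-DHL-4 and 39 of 44 in OCI-Ly18, a large overlap follows from these call rates. The members higher in OCI-Ly18 alone, ETV7, HERC5, IFITM1 and OASL, were not tested in SU-DHL-4. Over all genes called higher the lines shared 53.2% of those in SU-DHL-4 and 35.3% of those in OCI-Ly18. Summed over all 47 members, the level in SU-DHL-4 was 2263 to 2323 CPM with TAZ and CART19 and 2261 to 2332 CPM with DMSO and CART19, against 1095 to 1115 CPM with TAZ and UTD and 1104 to 1132 CPM with DMSO and UTD. In OCI-Ly18 it was 2413 to 2469 CPM with TAZ and CART19 and 2312 to 2345 CPM with DMSO and CART19, against 1150 to 1191 CPM with TAZ and UTD and 1141 to 1159 CPM with DMSO and UTD. The CART19 and UTD libraries did not overlap in either line.

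**Figure D1:**
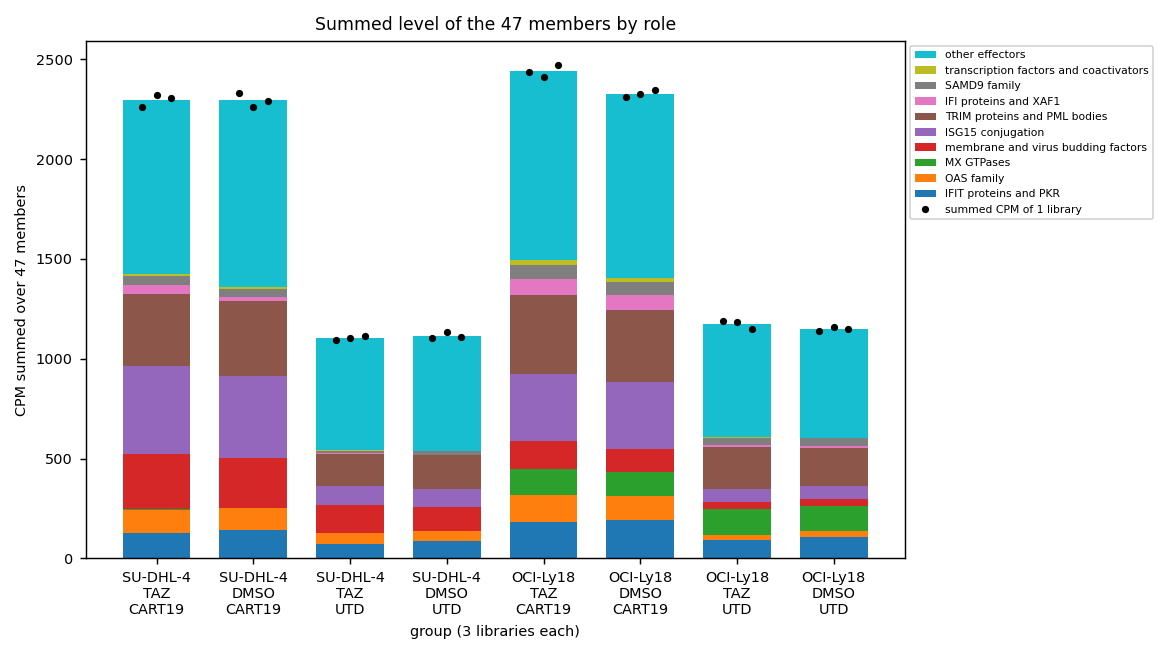
Summed CPM of the 47 members in each group, stacked by role (bars: sums of the means of 3 libraries; black points: the sum in each library). The lowest CART19 library, at 2261 CPM, lies above the highest UTD library, at 1191 CPM; colours can be compared between groups but not with each other, because longer genes collect more counts.

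The IFIT proteins bind viral RNA or its translation machinery, and EIF2AK2 encodes PKR, a kinase that stops translation when it meets double-stranded RNA. All 5 genes of this group were higher with CART19 cells in both lines and under both pretreatments. IFIT3 (ENSG00000119917, GRCh38 chromosome 10, 89327894 to 89340971) had 1.75, 1.75 and 1.21 CPM in the DMSO CART19 libraries of SU-DHL-4, against 0, 0 and 0 CPM with DMSO and UTD (at least 26-fold higher, adjusted p = 7.65e-07). For such bounds a group without counts was set to 3 counts over its libraries. In OCI-Ly18 IFIT3 was also read with UTD cells. It had 15.1, 15.1 and 14.5 CPM with TAZ and CART19 there against 1.73, 0.424 and 0.559 CPM with TAZ and UTD (log2 fold change 4.12 ± 0.26, adjusted p = 3.2e-14). IFIT5 likewise stood at 2.91, 3 and 3.09 CPM with CART19 cells in SU-DHL-4 under DMSO and at 0 in each DMSO UTD library (at least 49.8-fold higher, adjusted p = 1.23e-10). IFIT1 had 5.86, 4.42 and 6.08 CPM with DMSO and CART19 in OCI-Ly18 and 0.19, 0.672 and 0.172 CPM with DMSO and UTD (log2 fold change 4.02 ± 0.40, adjusted p = 3.29e-09). IFIT2 had 1 count in the DMSO UTD libraries of SU-DHL-4 and 131 counts in the DMSO CART19 libraries. In all of these genes the 3 CART19 libraries lay above the 3 UTD libraries. EIF2AK2, already well expressed, rose little, by 0.67 ± 0.06 log2 in SU-DHL-4 and 0.68 ± 0.06 in OCI-Ly18 under DMSO (adjusted p = 2.17e-12 and 6.58e-10).

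OAS1, OAS2 and OAS3 make the short oligoadenylates that switch on RNase L, and OASL is a relative without that activity. OAS1, OAS2 and OAS3 were higher with CART19 cells in all 4 comparisons. OAS2 averaged 78 ± 4.3 CPM with DMSO and CART19 against 37.9 ± 2.05 CPM with DMSO and UTD in SU-DHL-4 (log2 fold change 1.05 ± 0.07, adjusted p = 1.3e-15), and 99.7 ± 2.58 against 27.3 ± 3.16 CPM in OCI-Ly18 (log2 fold change 1.90 ± 0.08, adjusted p = 8.86e-19; SD, n = 3). OASL was near the floor: it had 2 counts with DMSO and CART19 and 0 with DMSO and UTD in SU-DHL-4, where it was not tested. In OCI-Ly18 it had 35 counts against 2, a ratio of 16.1-fold (95% counting interval 4.14 to 138), and its call (adjusted p = 0.0121) was lost without OCI-Ly18 DMSO UTD replicate 1 (adjusted p = 0.065), without OCI-Ly18 DMSO UTD replicate 3 (adjusted p = 0.0812) and without OCI-Ly18 DMSO CART19 replicate 1 (adjusted p = 0.0761).

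The MX GTPases form rings around viral nucleoprotein, and the lines differed in them. MX1 was higher with CART19 cells in all 4 comparisons, with 2.59, 0.818 and 1.88 CPM with DMSO and CART19 against 0.0606, 0 and 0.0553 CPM with DMSO and UTD in SU-DHL-4, a ratio of 42.5-fold (95% counting interval 11.4 to 357). In OCI-Ly18 MX1 had 11, 11.3 and 13 CPM with DMSO and CART19 against 1.08, 1.28 and 1.38 CPM with DMSO and UTD (log2 fold change 3.26 ± 0.22, adjusted p = 2.21e-13). MX2 (ENSG00000183486, GRCh38 chromosome 21, 41361943 to 41409390) had 0.582, 0.764 and 0.545 CPM with DMSO and CART19 in SU-DHL-4 and 0 counts in all 3 DMSO UTD libraries (at least 10.6-fold higher, adjusted p = 0.000476). In OCI-Ly18 it stood at 109, 112 and 113 CPM with DMSO and CART19 and at 124, 122 and 123 CPM with DMSO and UTD, and did not pass (log2 fold change -0.12 ± 0.06, adjusted p = 0.206). In this line the CART19 libraries of MX2 lay below the UTD libraries, the only member for which that held under both pretreatments, and the difference passed neither.

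The IFITM proteins stiffen membranes against fusion, BST2 tethers budding virus particles, RSAD2 (viperin) makes a nucleotide that ends viral RNA chains, and CMPK2, its chromosomal neighbour, supplies that nucleotide's precursor. BST2 and CMPK2 were higher with CART19 cells in all 4 comparisons, and BST2 averaged 176 ± 5.49 CPM with DMSO and CART19 against 78.8 ± 4.33 CPM with DMSO and UTD in SU-DHL-4 and 98.2 ± 2.88 against 30.6 ± 1.82 CPM in OCI-Ly18 (log2 fold changes 1.16 ± 0.06 and 1.71 ± 0.08). IFITM1 had 7.51, 9.45 and 6.38 CPM with DMSO and CART19 against 0.253, 0.604 and 0.631 CPM with DMSO and UTD in OCI-Ly18 (log2 fold change 3.97 ± 0.28, adjusted p = 6.45e-13), while SU-DHL-4 had 4 counts with DMSO and CART19 and 0 with DMSO and UTD. IFITM2 was read mainly in SU-DHL-4. It averaged 46 ± 6.15 CPM with DMSO and CART19 and 33.1 ± 5.92 CPM with DMSO and UTD in SU-DHL-4 (log2 fold change 0.48 ± 0.21, adjusted p = 0.275, not passed), and 0.249 ± 0.182 and 0.0824 ± 0.0973 CPM in OCI-Ly18 (log2 fold change 1.53 ± 0.93, adjusted p = 0.351, not passed). Its libraries under DMSO were spread widely within each group. IFITM3 was tested in neither line, with at most 18 counts in a group, which was SU-DHL-4 with DMSO and UTD. The 3 IFITM genes are close copies, and counting could split reads between them. The annotated span of IFITM1 also lies within that of IFITM2, on the same strand. RSAD2 was higher with CART19 cells in SU-DHL-4 under DMSO (log2 fold change 3.47 ± 0.35, adjusted p = 6.01e-11) and not past the threshold in OCI-Ly18 under DMSO (log2 fold change 1.15 ± 0.63, adjusted p = 0.284), and it was higher under tazemetostat in SU-DHL-4 (log2 fold change 2.30 ± 0.26, adjusted p = 1.45e-09) and in OCI-Ly18 (log2 fold change 3.42 ± 0.66, adjusted p = 0.000338). The difference in response between the lines under DMSO did not pass for RSAD2 (adjusted p = 0.0856).

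In the ISG15 system a ubiquitin-like tag (ISG15) is loaded by the conjugating enzyme UBE2L6, attached in human cells by the ligase HERC5, and removed by USP18. UBE2L6 (ENSG00000156587, GRCh38 chromosome 11, 57551656 to 57568284) had 287, 274 and 279 CPM with DMSO and CART19 in SU-DHL-4, against 27.3, 27.4 and 28.6 CPM with DMSO and UTD (log2 fold change 3.34 ± 0.06, adjusted p = 6.66e-40). It reached similar levels under tazemetostat there, with 265, 284 and 289 CPM with CART19 against 25.7, 25.4 and 26.6 CPM with UTD cells (log2 fold change 3.45 ± 0.06, adjusted p = 2.34e-40). In OCI-Ly18 UBE2L6 averaged 299 ± 1.78 CPM with DMSO and CART19 and 43.1 ± 1.31 CPM with DMSO and UTD (log2 fold change 2.82 ± 0.06, adjusted p = 2.51e-27). ISG15 rose by less, with log2 fold changes of 1.09 ± 0.07 in SU-DHL-4 and 1.44 ± 0.16 in OCI-Ly18 under DMSO. HERC5 had 0 counts in all 12 libraries of SU-DHL-4 and 14.8, 14.3 and 14.4 CPM with DMSO and CART19 against 9.11, 9.54 and 10.7 CPM with DMSO and UTD in OCI-Ly18 (log2 fold change 0.59 ± 0.13, adjusted p = 0.00147). A count of 0 limits the level at this depth and does not show that the gene is silent. USP18 was tested in neither line, and had 14 counts with DMSO and CART19 against 0 with DMSO and UTD in SU-DHL-4 and 32 against 0 in OCI-Ly18. HERC6 was higher with CART19 cells in SU-DHL-4 under DMSO (log2 fold change 2.77 ± 0.54, adjusted p = 0.00023) and not past the threshold in OCI-Ly18 under DMSO (log2 fold change 0.69 ± 0.24, adjusted p = 0.0548), where it was higher under tazemetostat (log2 fold change 1.43 ± 0.24, adjusted p = 5.4e-05). Its call in SU-DHL-4 under tazemetostat (adjusted p = 0.0302) was lost without SU-DHL-4 TAZ UTD replicate 2 (adjusted p = 0.0632), without SU-DHL-4 TAZ UTD replicate 3 (adjusted p = 0.177) and without SU-DHL-4 TAZ CART19 replicate 1 (adjusted p = 0.115).

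TRIM5 binds retroviral capsids, TRIM21 recognises antibody inside the cell, TRIM22 belongs to the same family, and PML, SP100 and SP110 are proteins of nuclear bodies. All 6 were higher with CART19 cells in all 4 comparisons, and all 6 had at least 10 counts in each UTD library. Their changes were modest. Under DMSO, TRIM22 averaged 129 ± 4.84 CPM with CART19 against 46.3 ± 5.17 CPM with UTD cells in SU-DHL-4 (log2 fold change 1.48 ± 0.07) and 127 ± 1.75 against 67.1 ± 4.63 CPM in OCI-Ly18 (0.94 ± 0.06). SP100 changed least of the 6, with 0.40 ± 0.08 and 0.45 ± 0.10 log2 (adjusted p = 0.000259 and 0.00231).

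IFI6, IFI27, IFI35, IFI44 and IFI44L are interferon-induced proteins of varied location, and XAF1 counters an inhibitor of apoptosis. These 6 were higher with CART19 cells in all 4 comparisons. IFI44L (ENSG00000137959, GRCh38 chromosome 1, 78619922 to 78646145), whose printed promoter stretch holds 2 copies of the same ISRE match, had 7.51, 6.82 and 7.03 CPM with TAZ and CART19 in SU-DHL-4, against 1 count in the 3 TAZ UTD libraries together, a ratio of 356-fold (95% counting interval 63.5 to 14109). In OCI-Ly18 it had 9.28, 8.38 and 7.59 CPM with TAZ and CART19 and 0.385, 0.182 and 0.28 CPM with TAZ and UTD (log2 fold change 4.93 ± 0.38, adjusted p = 4.8e-12). XAF1 had 5.94, 5.72 and 6.09 CPM with TAZ and CART19 in SU-DHL-4, where the TAZ UTD libraries had 0 counts (at least 98.1-fold higher), and 10.7, 11.1 and 14.5 against 0.705, 0.908 and 0.503 CPM in OCI-Ly18 (log2 fold change 4.16 ± 0.29, adjusted p = 3.62e-13). IFI35 had 12, 11 and 13.9 CPM with DMSO and CART19 against 0.364, 1.52 and 0.94 CPM with DMSO and UTD in SU-DHL-4 (log2 fold change 3.72 ± 0.26, adjusted p = 1.5e-14). IFI44 had 33 counts with DMSO and CART19 and 0 with DMSO and UTD in SU-DHL-4, and 158 and 1 in OCI-Ly18. The CART19 libraries of IFI35, IFI44L and XAF1 lay above the UTD libraries in each pair of groups given. IFI27 had 10.6, 10.1 and 12.2 CPM with DMSO and CART19 against 0.506, 0.672 and 0.631 CPM with DMSO and UTD in OCI-Ly18 (log2 fold change 4.19 ± 0.25, adjusted p = 7.62e-15). In SU-DHL-4 under DMSO (log2 fold change 2.03 ± 0.64, adjusted p = 0.037) it lost the call in 9 of 17 alternative settings (adjusted p up to 0.199), and the difference in response between the lines did not pass (log2 difference -2.18 ± 0.65, adjusted p = 0.0595).

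SAMD9 and SAMD9L are paralogous antiviral factors, and both were higher with CART19 cells in all 4 comparisons. SAMD9L (ENSG00000177409, GRCh38 chromosome 7, 93130055 to 93148369) had 10.4, 8.67 and 9.38 CPM with DMSO and CART19 in SU-DHL-4 and 2 counts over the 3 DMSO UTD libraries, a ratio of 234-fold (95% counting interval 64.5 to 1941). Under tazemetostat it had 20.3, 19.4 and 18.9 CPM with CART19 against 0.706, 0.397 and 0.121 CPM with UTD cells (log2 fold change 5.59 ± 0.28, adjusted p = 1.11e-21). SAMD9 rose by 0.94 ± 0.11 log2 in SU-DHL-4 and 0.45 ± 0.09 in OCI-Ly18 under DMSO.

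Among the transcriptional regulators, HELZ2, a coactivator, was higher with CART19 cells in all 4 comparisons, with 6.15, 8.24 and 5.87 CPM with DMSO and CART19 against 0.424, 1.19 and 0.387 CPM with DMSO and UTD in SU-DHL-4 (log2 fold change 3.38 ± 0.31, adjusted p = 3.76e-12). ETV7, an ETS repressor, had 8.13, 5.8 and 8.3 CPM with DMSO and CART19 in OCI-Ly18 and 0 counts with DMSO and UTD (at least 118-fold higher, adjusted p = 2.32e-12). In SU-DHL-4 ETV7 was too low for the filter, with 33 counts against 0. BATF2 was not tested in OCI-Ly18, where it had 16 counts with DMSO and CART19 and 3 with DMSO and UTD, and did not pass in SU-DHL-4 (log2 fold change 0.69 ± 0.88, adjusted p = 0.77 under DMSO).

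The other effectors held some of the steepest increases. LGALS3BP (ENSG00000108679, GRCh38 chromosome 17, 78971238 to 78980109), a secreted glycoprotein that binds galectins, had 31.8, 34.6 and 31.5 CPM with DMSO and CART19 against 0.0606, 0.857 and 0.442 CPM with DMSO and UTD in SU-DHL-4 (log2 fold change 6.19 ± 0.24, adjusted p = 3.25e-18). In OCI-Ly18 it had 84.8, 76 and 80.7 CPM with DMSO and CART19 against 2.85, 2.49 and 3.44 CPM with DMSO and UTD (log2 fold change 4.80 ± 0.12, adjusted p = 5.89e-26). Under tazemetostat it averaged 113 ± 5.33 CPM with CART19 against 5.28 ± 0.812 CPM with UTD cells there. No CART19 library overlapped a UTD library. EPSTI1 (ENSG00000133106, GRCh38 chromosome 13, 42886388 to 42992271), an interferon-responsive protein, was as steep in OCI-Ly18, with 18.7, 18.3 and 18.2 CPM with DMSO and CART19 and 0.253, 0.134 and 0.803 CPM with DMSO and UTD (log2 fold change 5.48 ± 0.27, adjusted p = 4.02e-17). In SU-DHL-4 the level of EPSTI1 with UTD cells was higher. It had 66.6, 66.4 and 69.5 CPM with DMSO and CART19 there against 4, 5.87 and 5.42 CPM with DMSO and UTD (log2 fold change 3.73 ± 0.12, adjusted p = 1.39e-27). ISG20, an exonuclease, ADAR, which edits adenosine in double-stranded RNA, DDX60, a helicase, RTP4, a chaperone of receptors, and LAP3, an aminopeptidase, were also higher in all 4 comparisons. ADAR rose by only 0.41 ± 0.04 and 0.55 ± 0.04 log2 under DMSO. PLSCR1, a membrane scramblase, was higher in SU-DHL-4 under DMSO (log2 fold change 0.96 ± 0.18, adjusted p = 0.000195) and passed in none of the other 3.

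**Figure D2:**
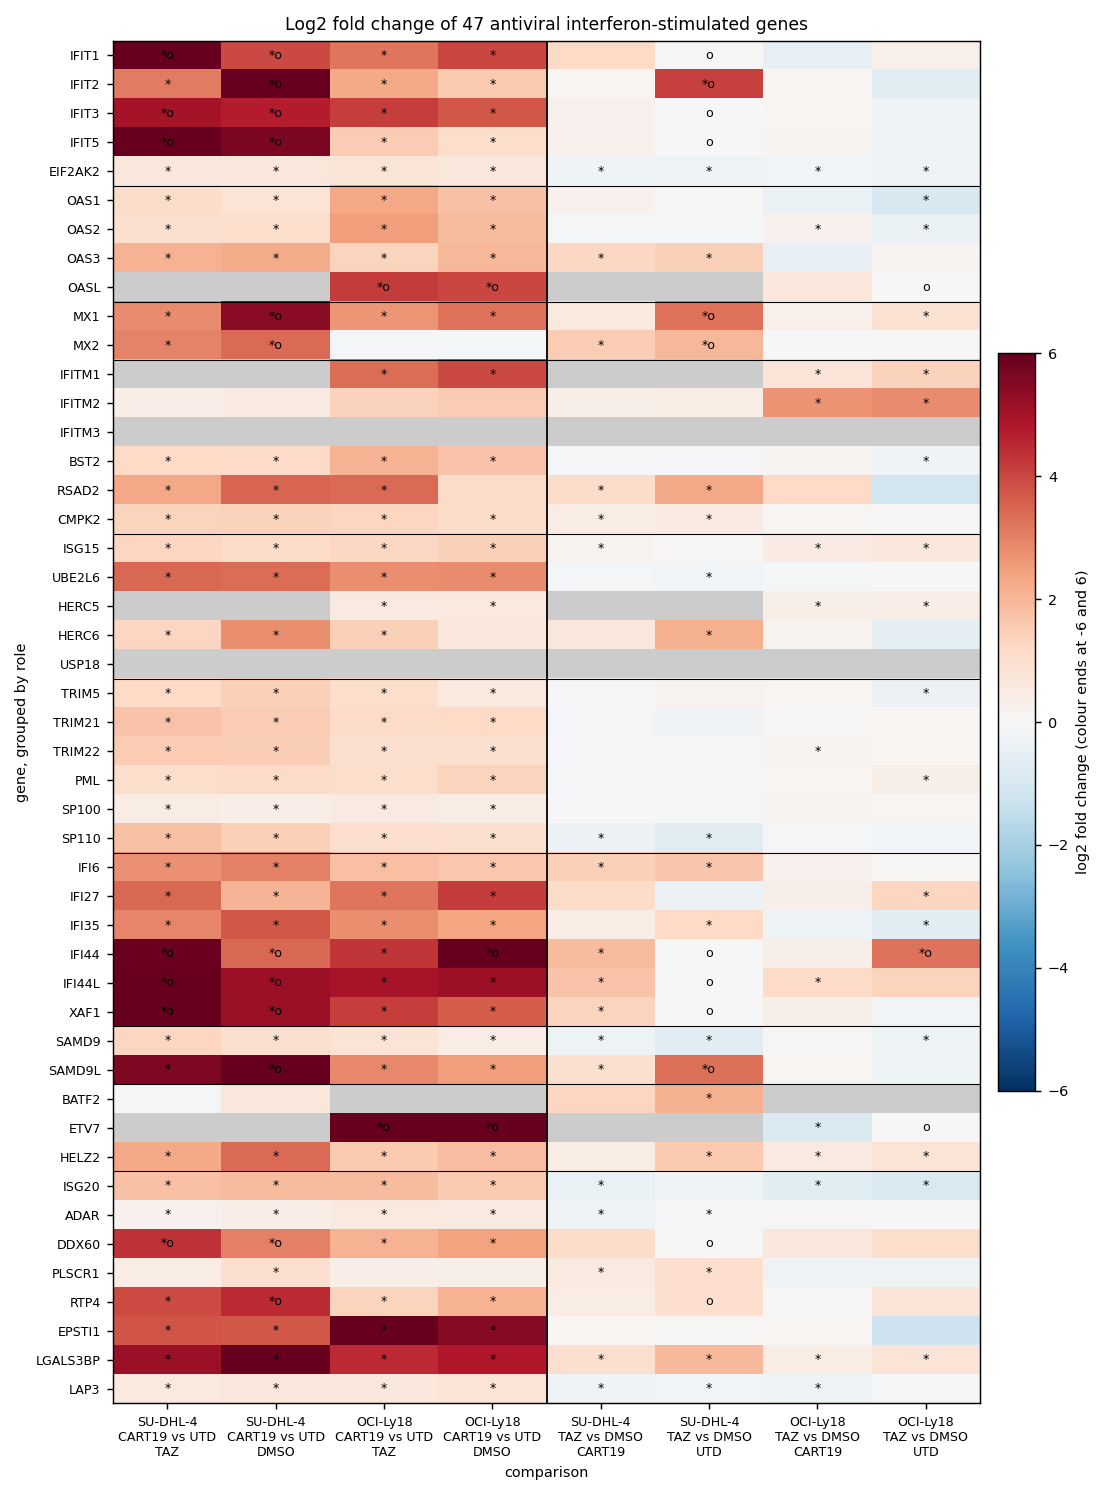
Log2 fold change of each member (rows, grouped by role) in the 4 comparisons of CART19 with UTD cells (left) and the 4 of tazemetostat with DMSO (right). A star marks adjusted p under 0.05, o a gene with at most 3 counts in one group, drawn at its bound, its counting ratio or 0 where both groups had at most 3 counts, and grey a gene that was not tested. No blue cell on the left carries a star, and on the right both colours do.

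Without CART19 cells or the drug, the lines also differed widely. The DMSO UTD libraries were taken after the same 48 h of culture, so a response to UTD cells cannot be told apart from a difference between the lines. In the DMSO UTD libraries 11 members were higher in SU-DHL-4 than in OCI-Ly18 and 26 lower, where 29.0% and 35.9% of all tested genes were (64.8% in either direction). IFITM2 stood at 33, 39 and 27.2 CPM in SU-DHL-4, against 0.19, 0 and 0.0574 CPM in OCI-Ly18 (log2 fold change 8.60 ± 0.40, adjusted p = 3.28e-16). IFITM2 was thus read in SU-DHL-4 and nearly absent from OCI-Ly18, and most other large differences ran the other way. MX2, with 0 counts in SU-DHL-4, was at least 2040-fold lower there than in OCI-Ly18, HERC5 at least 163-fold lower, IFIT3 at least 17.6-fold lower, RTP4 at least 17.2-fold lower and XAF1 at least 12.4-fold lower (adjusted p between 1.19e-32 and 5.41e-07). IFIT5 had 0 counts in SU-DHL-4 and 726 in OCI-Ly18. ISG15, EPSTI1 and OAS1 were higher in SU-DHL-4, with log2 differences of 3.65 ± 0.11, 3.69 ± 0.29 and 2.12 ± 0.17. The median over the 46 tested members was -1.11, or -0.57 with genes that lacked counts at their bound, and -0.10 over all genes. Upper quartile scaling moved the median of all genes by -0.14 in this comparison.

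**Figure D3:**
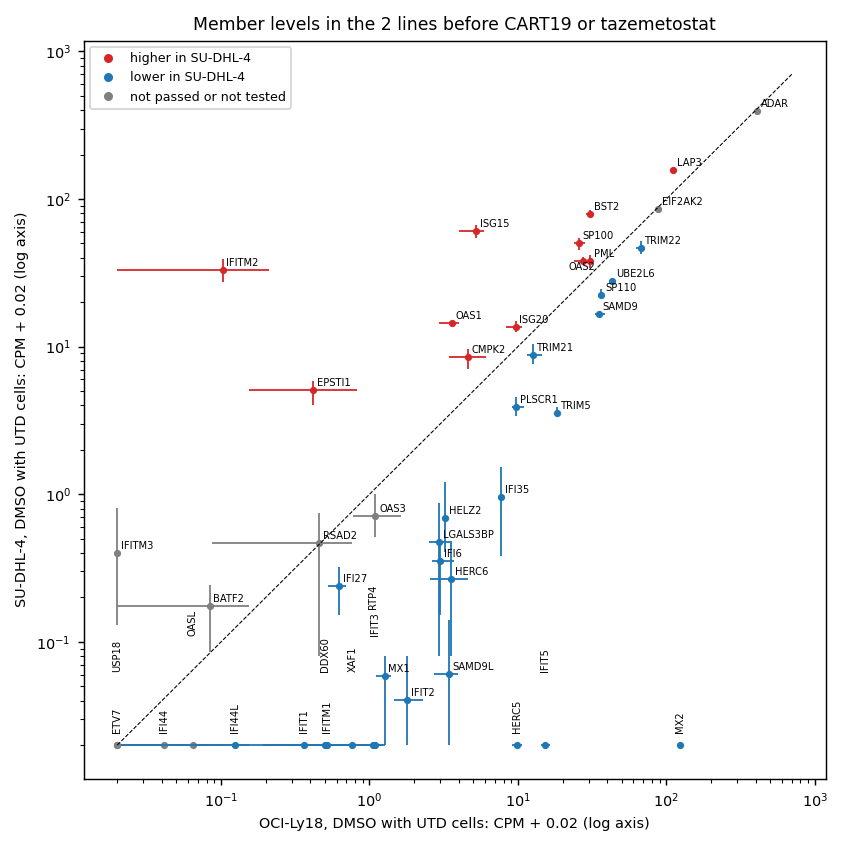
Level of each member in the DMSO UTD libraries of SU-DHL-4 (vertical axis) and OCI-Ly18 (horizontal axis), both CPM + 0.02 on log axes (points: means of 3 libraries; lines: lowest to highest library; dashes: equal levels). Genes on the bottom edge, MX2, IFIT5 and HERC5 among them, had 0 counts in SU-DHL-4.

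The response to CART19 cells also differed between the lines in size. In a fit of all 24 libraries, and under DMSO, 14 members responded more in SU-DHL-4 than in OCI-Ly18 and 4 less (background 1.19% and 1.63%, 2.83% in either direction). At the top were IFIT5 (adjusted p = 4.58e-09), MX2 (9.43e-05), RTP4 (0.0103), SAMD9L (1.55e-08) and IFIT2 (5.17e-05), all with at most 2 counts over the DMSO UTD libraries of SU-DHL-4. Their fitted differences depend on the prior count and are not given. Where both lines had counts in the DMSO UTD libraries, UBE2L6 (log2 difference 0.51 ± 0.08, adjusted p = 2.71e-05) and TRIM22 (0.53 ± 0.09, 0.00016) responded more in SU-DHL-4. So did SP110 (0.46 ± 0.11), TRIM5 (0.86 ± 0.21), IFI35 (1.36 ± 0.33) and LGALS3BP (1.38 ± 0.36). EPSTI1 (-1.75 ± 0.35, 0.00158), OAS1 (-0.93 ± 0.22, 0.00843), OAS2 (-0.86 ± 0.11, 4.54e-07) and BST2 (-0.55 ± 0.10, 0.000414) responded less, and these 4 were higher in SU-DHL-4 in the DMSO UTD libraries. The OAS1 call was lost without OCI-Ly18 DMSO UTD replicate 1 (adjusted p = 0.0567) and without OCI-Ly18 DMSO CART19 replicate 1 (adjusted p = 0.052), and the LGALS3BP call without OCI-Ly18 DMSO UTD replicate 3 (adjusted p = 0.0863), without SU-DHL-4 DMSO UTD replicate 1 (adjusted p = 0.24) and without SU-DHL-4 DMSO UTD replicate 3 (adjusted p = 0.0866). XAF1, HERC6 and HELZ2 also passed, and lost the call in 10, 5 and 3 of 29 alternative settings.

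**Figure D4:**
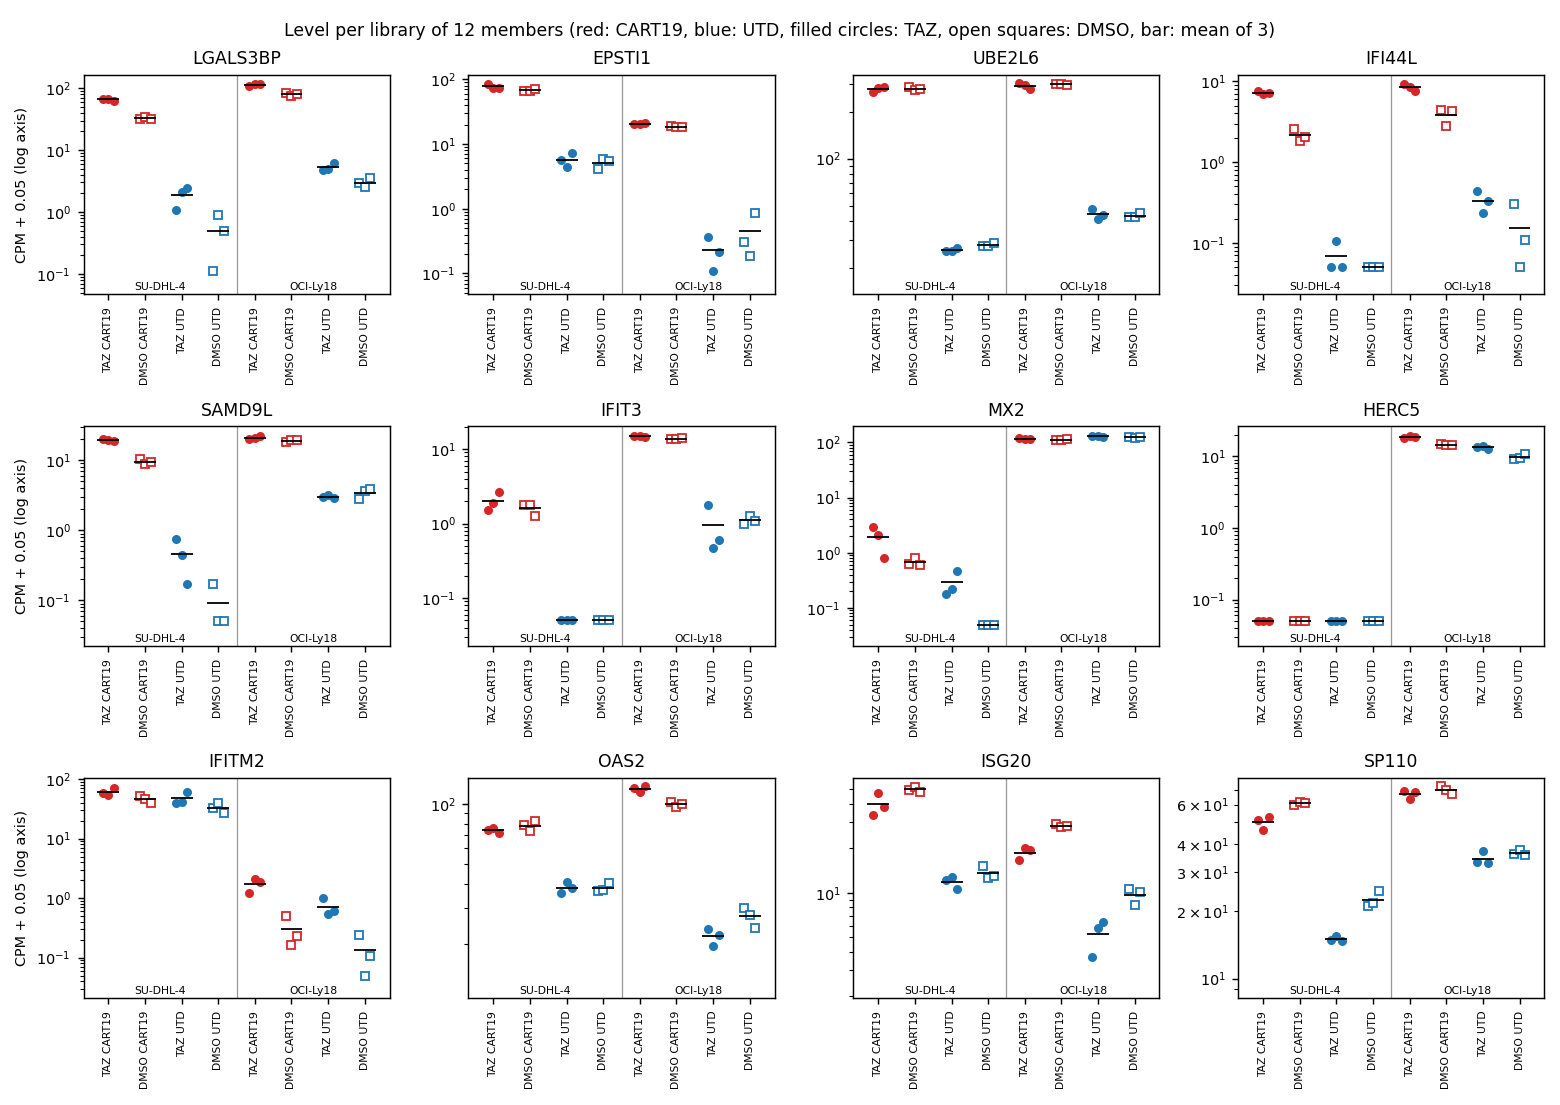
CPM + 0.05 on log axes in every library for 12 members, SU-DHL-4 left and OCI-Ly18 right in each panel (red: CART19; blue: UTD; filled circles: TAZ; open squares: DMSO; bars: means of 3). HERC5 sits at 0 throughout SU-DHL-4, IFIT3 leaves 0 there with CART19 cells and MX2 with CART19 cells or the drug, and MX2 shows no step between its groups in OCI-Ly18.

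Tazemetostat alone moved fewer members, and in both directions. With UTD cells in SU-DHL-4, 41 members were tested, and 14 were higher with tazemetostat than with DMSO and 6 lower. The filter on low counts used all 12 libraries of a line, so members could pass it through their level with CART19 cells. Of the 41, 12 had at most 3 counts over the TAZ UTD or over the DMSO UTD libraries of SU-DHL-4. Of all genes tested in this comparison, 17.2% were higher and 18.3% lower, so the decreases were no larger a share of the 41 tested members. Of the 20 members with at least 10 counts in every DMSO UTD library of SU-DHL-4, 2 were higher and 6 lower. The other 12 higher members fell below that minimum. In OCI-Ly18 10 of the 44 tested members were higher and 8 lower (background 11.6% and 12.7%). Of the 32 members that reached the minimum of 10 counts there, 6 were higher and 8 lower. The share of all genes at this minimum was not computed in either line. In SU-DHL-4 the split over all genes was 2561 higher and 2721 lower with TMM and 3221 and 1782 with upper quartile scaling, which gave 15 members higher and 3 lower. The lines shared HELZ2, LGALS3BP and MX1 as higher, which is 21.4% of the members higher in SU-DHL-4 and 30.0% of those in OCI-Ly18, and EIF2AK2 and SAMD9 as lower, which is 33.3% of the members lower in SU-DHL-4 and 25% of those in OCI-Ly18. Of all genes called higher, the lines shared 28.8% of those in SU-DHL-4 and 38.5% of those in OCI-Ly18, and of those called lower 45.1% of those in SU-DHL-4 and 58.8% of those in OCI-Ly18.

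Among the higher members, PLSCR1 had 7.06, 9.18 and 8.64 CPM with TAZ and UTD in SU-DHL-4, against 3.39, 3.69 and 4.53 CPM with DMSO and UTD (log2 fold change 1.02 ± 0.18, adjusted p = 1.57e-05). CMPK2 averaged 12.7 ± 0.414 CPM with TAZ and UTD against 8.54 ± 1.36 CPM with DMSO and UTD (log2 fold change 0.50 ± 0.14, adjusted p = 0.00263), and its neighbour RSAD2 2.25 ± 0.106 against 0.446 ± 0.345 CPM (log2 fold change 2.25 ± 0.38, adjusted p = 5.2e-06). IFI6 (1.67 ± 0.44), OAS3 (1.41 ± 0.35), HELZ2 (1.56 ± 0.35) and HERC6 (2.13 ± 0.56) were also higher. BATF2 was called too (adjusted p = 0.0316), from 8 counts with DMSO and UTD, and lost the call in 7 of 17 alternative settings (adjusted p up to 0.207). LGALS3BP averaged 1.83 ± 0.719 CPM with TAZ and 0.453 ± 0.398 CPM with DMSO in SU-DHL-4 (log2 fold change 1.97 ± 0.38, adjusted p = 0.000172), and had 4.68, 4.96 and 6.21 against 2.85, 2.49 and 3.44 CPM in OCI-Ly18 (log2 fold change 0.79 ± 0.15, adjusted p = 0.000223). MX2, with 0 counts in SU-DHL-4 with DMSO and UTD, had 12 counts over the TAZ UTD libraries (at least 4-fold higher, adjusted p = 0.00845), SAMD9L 20 against 2 and IFIT2 17 against 1. For the last 2 the counts are TAZ with UTD against DMSO with UTD. MX1 was higher in both lines, and its call was lost without SU-DHL-4 DMSO UTD replicate 2 (adjusted p = 0.0556) and without SU-DHL-4 TAZ UTD replicate 1 (adjusted p = 0.309) in SU-DHL-4 and without OCI-Ly18 TAZ UTD replicate 3 (adjusted p = 0.112) in OCI-Ly18. In OCI-Ly18, HELZ2 had 4.55, 6.72 and 6.43 CPM with TAZ and UTD against 3.04, 3.22 and 3.38 CPM with DMSO and UTD (log2 fold change 0.82 ± 0.20, adjusted p = 0.00231). ISG15 averaged 8.64 ± 0.126 CPM with TAZ and UTD against 5.21 ± 1.08 CPM with DMSO and UTD (log2 fold change 0.68 ± 0.16, adjusted p = 0.00219), and PML 41 ± 1.96 against 30.4 ± 1.78 CPM (log2 fold change 0.37 ± 0.08, adjusted p = 0.000622). The libraries with and without the drug did not overlap for these 3 genes. HERC5 had 13.4, 14 and 12.5 against 9.11, 9.54 and 10.7 CPM there (log2 fold change 0.38 ± 0.13, adjusted p = 0.0276), a call lost in 5 of 17 alternative settings (adjusted p up to 0.12). IFITM1 (1.40 ± 0.35), IFITM2 (2.84 ± 0.83) and IFI27 (1.31 ± 0.31) were also higher in OCI-Ly18, from levels under 1 CPM, and the IFITM2 call was lost without OCI-Ly18 DMSO UTD replicate 2 (adjusted p = 0.0624), without OCI-Ly18 DMSO UTD replicate 3 (adjusted p = 0.0521) and without OCI-Ly18 TAZ UTD replicate 1 (adjusted p = 0.0548). IFI44 was called in OCI-Ly18 from 10 counts with TAZ and UTD against 1 with DMSO and UTD, and lost the call in 6 of 17 alternative settings (adjusted p up to 0.14).

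Among the lower members, SP110 had 14.8, 15.4 and 14.7 CPM with TAZ and UTD in SU-DHL-4 against 21.1, 21.7 and 24.5 CPM with DMSO and UTD (log2 fold change -0.66 ± 0.10, adjusted p = 3.77e-07). SAMD9 had 10.9, 10.8 and 11.7 against 16.6, 16.5 and 16.8 CPM (log2 fold change -0.65 ± 0.12, adjusted p = 3.19e-05), in the opposite direction from its paralogue SAMD9L. EIF2AK2 had 71.8, 75.2 and 71.8 against 81.7, 86.8 and 87.5 CPM (log2 fold change -0.30 ± 0.06, adjusted p = 0.000118). The other 3, ADAR (-0.11 ± 0.04), LAP3 (-0.15 ± 0.05) and UBE2L6 (-0.18 ± 0.07), were small, and with upper quartile scaling, which raised all log2 fold changes of this comparison by 0.08, none of the 3 passed. SAMD9 and EIF2AK2 were lower in OCI-Ly18 as well (-0.29 ± 0.09 and -0.28 ± 0.06), the SAMD9 call being lost without OCI-Ly18 DMSO UTD replicate 2 (adjusted p = 0.163), without OCI-Ly18 TAZ UTD replicate 2 (adjusted p = 0.0788) and without OCI-Ly18 TAZ UTD replicate 3 (adjusted p = 0.171). In OCI-Ly18, ISG20 had 3.65, 5.75 and 6.32 CPM with TAZ and UTD and 10.6, 8.26 and 10 CPM with DMSO and UTD (log2 fold change -0.93 ± 0.16, adjusted p = 5.84e-05). IFI35 had 3.98, 6.78 and 4.31 CPM with TAZ and UTD against 7.4, 8.06 and 7.63 CPM with DMSO and UTD (log2 fold change -0.67 ± 0.17, adjusted p = 0.00341). OAS1 averaged 1.9 ± 0.529 against 3.55 ± 0.564 CPM (log2 fold change -0.97 ± 0.25, adjusted p = 0.00364). OAS2 (-0.39 ± 0.09), TRIM5 (-0.38 ± 0.11) and BST2 (-0.25 ± 0.09) were also lower, and the BST2 call was lost in 4 of 17 alternative settings (adjusted p up to 0.23). IFI35 thus moved down in OCI-Ly18 and up in SU-DHL-4 (log2 fold change 1.20 ± 0.32, adjusted p = 0.00266), and the difference between the lines passed (log2 difference 1.90 ± 0.38, adjusted p = 0.000482).

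With CART19 cells present, tazemetostat raised 12 of the 41 tested members and lowered 6 in SU-DHL-4 (background 16.1% and 18.7%). In OCI-Ly18 it raised 9 of 44 and lowered 4 (background 11% and 10.6%). In neither line were the decreases a larger share of the tested members than of all genes. With upper quartile scaling SU-DHL-4 had 3106 genes higher and 1715 lower, against 2400 and 2773 with TMM, and 14 members higher and 5 lower. In SU-DHL-4, 4 of the 6 genes of the IFI group were higher. IFI44L had 7.51, 6.82 and 7.03 CPM with TAZ and CART19 against 2.52, 1.8 and 2 CPM with DMSO and CART19, and the libraries did not overlap (log2 fold change 1.70 ± 0.31, adjusted p = 1.93e-05). IFI6 had 7.36, 7.79 and 8.18 CPM with TAZ and CART19 against 2.01, 3.49 and 2.78 CPM with DMSO and CART19 (log2 fold change 1.42 ± 0.28, adjusted p = 5.97e-05). XAF1 averaged 5.91 ± 0.187 against 2.23 ± 0.457 CPM (log2 fold change 1.34 ± 0.32, adjusted p = 0.000942), and IFI44 2.57 ± 0.951 against 0.652 ± 0.109 CPM (log2 fold change 1.89 ± 0.55, adjusted p = 0.00618). Genes of other roles moved with them. OAS3 had 7.56, 9.35 and 7.37 CPM with TAZ and CART19 against 3.62, 2.67 and 3.39 CPM with DMSO and CART19 (log2 fold change 1.26 ± 0.26, adjusted p = 9.84e-05). RSAD2 averaged 11 ± 1.62 against 4.97 ± 1.21 CPM (log2 fold change 1.09 ± 0.23, adjusted p = 0.00025), and SAMD9L 19.6 ± 0.725 against 9.47 ± 0.843 CPM (log2 fold change 0.98 ± 0.18, adjusted p = 1.99e-05). LGALS3BP averaged 65.5 ± 2.28 CPM with TAZ and CART19 and 32.6 ± 1.74 CPM with DMSO and CART19 (log2 fold change 0.94 ± 0.13, adjusted p = 8.78e-07). CMPK2 (0.46 ± 0.12) was higher too. MX2 had 99 counts with TAZ and CART19 and 32 with DMSO and CART19, and lost its call (adjusted p = 0.0391) in 8 of 17 alternative settings (adjusted p up to 0.279). The small increases of PLSCR1 (0.52 ± 0.17) and ISG15 (0.23 ± 0.07) lost theirs without SU-DHL-4 DMSO CART19 replicate 2 (adjusted p = 0.0553) for PLSCR1 and without SU-DHL-4 TAZ CART19 replicate 2 (adjusted p = 0.0822) for ISG15. The 6 decreases were small. ISG20 had 33.7, 47 and 37.6 CPM with TAZ and CART19 against 49.6, 51.9 and 48.1 CPM with DMSO and CART19 (log2 fold change -0.40 ± 0.10, adjusted p = 0.00118). SP110 averaged 50 ± 3.26 against 60.7 ± 1.08 CPM (log2 fold change -0.34 ± 0.08, adjusted p = 0.00094). ADAR (-0.28 ± 0.04), EIF2AK2 (-0.27 ± 0.06) and LAP3 (-0.23 ± 0.05) followed. SAMD9 averaged 26.6 ± 4.42 against 31.8 ± 2.5 CPM, its libraries overlapped, and its call (adjusted p = 0.0202) was lost in 6 of 17 alternative settings (adjusted p up to 0.203).

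In OCI-Ly18 the same comparison gave IFI44L 9.28, 8.38 and 7.59 CPM with TAZ and CART19 against 4.38, 2.76 and 4.21 CPM with DMSO and CART19 (log2 fold change 1.13 ± 0.27, adjusted p = 0.00205). IFITM1 had 13.4, 13.9 and 13.4 CPM with TAZ and CART19 against 7.51, 9.45 and 6.38 CPM with DMSO and CART19 (log2 fold change 0.78 ± 0.19, adjusted p = 0.00259). LGALS3BP had 107, 116 and 117 CPM with TAZ and CART19 against 84.8, 76 and 80.7 CPM with DMSO and CART19 (log2 fold change 0.47 ± 0.08, adjusted p = 3.56e-05), with no overlap of the libraries. IFITM2 (2.71 ± 0.65) was also higher, with 92 counts with TAZ and CART19 against 13 with DMSO and CART19. IFI44L, ISG15 and LGALS3BP were the higher members shared with SU-DHL-4, and EIF2AK2, ISG20 and LAP3 the lower ones. The shared higher members were 25% of those in SU-DHL-4 and 33.3% of those in OCI-Ly18. Over all genes called higher these shares were 28.3% and 37.4%. For the lower members the shares were 50% and 75%, and over all genes called lower 38.3% and 60.9%. ISG20 had 16.6, 19.9 and 19.3 CPM with TAZ and CART19 and 28.9, 27.8 and 28.4 CPM with DMSO and CART19 (log2 fold change -0.63 ± 0.13, adjusted p = 0.000661), and LAP3 averaged 156 ± 0.854 against 190.0 ± 1.1 CPM (log2 fold change -0.30 ± 0.05, adjusted p = 3.33e-05). Without DMSO CART19 replicate 2, or without TAZ CART19 replicate 3, 5 members were higher in this comparison, and without DMSO CART19 replicate 1 2 were lower. The remaining calls could be lost by leaving out a library or by another setting. HELZ2 averaged 16.9 ± 3.29 CPM with TAZ and CART19 against 11.4 ± 0.873 CPM with DMSO and CART19 (log2 fold change 0.55 ± 0.16, adjusted p = 0.013), and lost its call without OCI-Ly18 DMSO CART19 replicate 2 (adjusted p = 0.0696) and without OCI-Ly18 TAZ CART19 replicate 3 (adjusted p = 0.134). ISG15 averaged 19.5 ± 1.84 against 13.8 ± 0.783 CPM (log2 fold change 0.47 ± 0.14, adjusted p = 0.0132), and lost its call without OCI-Ly18 DMSO CART19 replicate 1 (adjusted p = 0.0698) and without OCI-Ly18 TAZ CART19 replicate 2 (adjusted p = 0.0575). EIF2AK2 (-0.19 ± 0.06) lost it without OCI-Ly18 DMSO CART19 replicate 1 (adjusted p = 0.0941), without OCI-Ly18 DMSO CART19 replicate 2 (adjusted p = 0.114) and without OCI-Ly18 TAZ CART19 replicate 2 (adjusted p = 0.141). ETV7 averaged 4.17 ± 0.583 against 7.41 ± 1.4 CPM (log2 fold change -0.85 ± 0.28, adjusted p = 0.0289), and its call was lost in 4 of 17 alternative settings (adjusted p up to 0.139). The TRIM22 call (log2 fold change 0.17 ± 0.06, adjusted p = 0.0372) was lost in 6 of 17 alternative settings (adjusted p up to 0.14), and the HERC5 call (log2 fold change 0.33 ± 0.12, adjusted p = 0.0462) in 12 of 17 alternative settings (adjusted p up to 0.124). The 2 tazemetostat comparisons of a line share no libraries, but each shares its libraries with a comparison of CART19 with UTD cells.

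**Figure D5:**
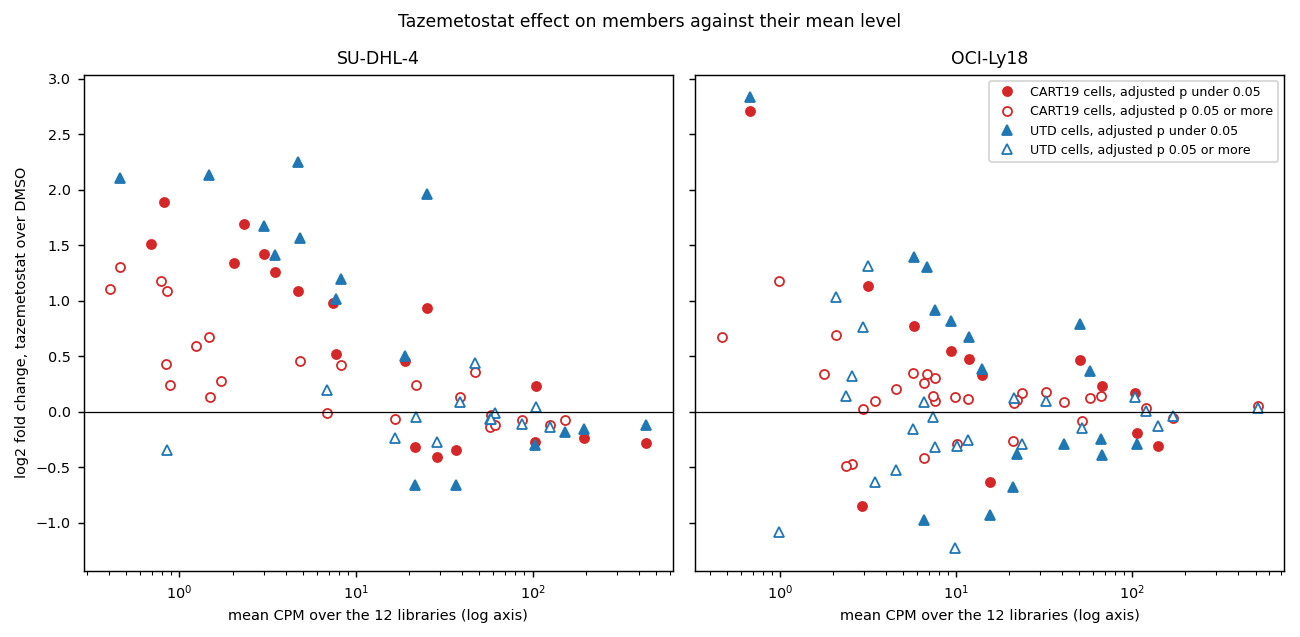
Log2 fold change of members with tazemetostat over DMSO against their mean CPM over the 12 libraries of the line (log axis), SU-DHL-4 left and OCI-Ly18 right (red circles: with CART19 cells; blue triangles: with UTD cells; filled: adjusted p under 0.05). Genes with at most 3 counts in one group are left out; filled points lie on both sides of 0 in each line.

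Whether the drug changed the response to CART19 cells is the interaction in each line's fit. In SU-DHL-4 0 members passed in either direction by edgeR's quasi-likelihood test (background 0.269% higher and 0.626% lower, 0.895% in all), and 0 passed by DESeq2. At an unadjusted p under 0.05 in edgeR, 2 were higher and 11 lower. The share of all genes at an unadjusted p under 0.05 was not computed in either line, so such counts have no background here. In OCI-Ly18 1 member was higher and 0 lower (background 0.334% and 0.0850%, 0.419% in all), with 8 and 5 at an unadjusted p under 0.05. DESeq2 and the fit without a filter gave 2 higher there, and leaving out TAZ CART19 replicate 2 gave 3. Upper quartile scaling gave 43 genes higher and 22 lower there, against 55 and 14 with TMM. The member was OAS2. It averaged 120.0 ± 3.63 CPM with TAZ and CART19, 99.7 ± 2.58 CPM with DMSO and CART19, 21.7 ± 2.14 CPM with TAZ and UTD and 27.3 ± 3.16 CPM with DMSO and UTD (interaction 0.63 ± 0.11 log2, adjusted p = 0.00594). The drug's group was thus the lower one with UTD cells and the higher one with CART19 cells. The difference with CART19 cells (log2 fold change 0.24 ± 0.07, adjusted p = 0.0176) lost its call in 4 of 17 alternative settings (adjusted p up to 0.082).

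The lines differed in their response to tazemetostat for some members. With UTD cells 11 members responded more in SU-DHL-4 than in OCI-Ly18 and 3 less (background 6.90% and 3.66%), and with CART19 cells 9 and 3 (background 5.92% and 4.20%). Leaving out single libraries moved the counts with CART19 cells to between 4 and 10 responding more (4 without OCI-Ly18 DMSO CART19 replicate 3) and between 2 and 7 less (2 without SU-DHL-4 DMSO CART19 replicate 3, and 7 without that OCI-Ly18 library and without 7 of the UTD libraries). With CART19 cells all genes split into 1051 and 746 with TMM, 925 and 1020 with RLE and 1263 and 549 with upper quartile factors, and the members into 8 and 4 with RLE and 10 and 3 with upper quartile factors. With UTD cells RSAD2 and HERC6 led where counts allowed a difference, with 3.36 ± 0.84 and 2.69 ± 0.58 log2 (adjusted p = 0.00532 and 0.00099). IFITM2 (-2.32 ± 0.58, adjusted p = 0.00956) led the lower members with CART19 cells, and OAS3 (1.77 ± 0.39, 0.00149) the higher ones. PLSCR1 differed with both, by 1.35 ± 0.24 with UTD cells and 0.83 ± 0.23 with CART19 cells, and the call with CART19 cells was lost without OCI-Ly18 DMSO CART19 replicate 2 (adjusted p = 0.0591) and without OCI-Ly18 TAZ CART19 replicate 2 (adjusted p = 0.0694).

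Some of the genes that carry the signal to these promoters rose with CART19 cells as well. Of 12 interferon receptor and signalling genes, 5 were higher in SU-DHL-4 under DMSO, and in OCI-Ly18 5 were higher and JAK1 was lower (log2 fold change -0.20 ± 0.06, adjusted p = 0.0229). STAT2 rose by 1.52 ± 0.06 log2 in SU-DHL-4 and 0.96 ± 0.06 log2 in OCI-Ly18, IRF9 by 1.85 ± 0.26 and 2.23 ± 0.21, and the feedback inhibitor SOCS1 by 2.29 ± 0.09 and 1.61 ± 0.08. Of 20 interferon gamma targets, 18 were tested in each line and 16 were higher in each under DMSO. GBP1, a guanylate-binding protein, had 114, 116 and 114 CPM with DMSO and CART19 against 0.182, 0.33 and 0.0553 CPM with DMSO and UTD in SU-DHL-4 (log2 fold change 9.26 ± 0.17, adjusted p = 9.97e-40) and 459, 471 and 463 against 1.2, 1.81 and 0.803 CPM in OCI-Ly18 (log2 fold change 8.56 ± 0.10, adjusted p = 4.99e-35). IRF1 rose by 4.15 ± 0.12 and 3.10 ± 0.07 log2. Of 14 nucleic acid sensors and inducers of interferon, 6 were higher in each line under DMSO. Among them were the RNA sensors RIGI (1.32 ± 0.24 in SU-DHL-4 and 0.75 ± 0.09 in OCI-Ly18) and IFIH1 (3.03 ± 0.53 and 0.95 ± 0.15). Of 22 interferon genes only IFNG passed the filter on low counts.

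Of the 18 interferon gamma targets tested in each line, 3 were higher and 6 lower with tazemetostat and CART19 cells in SU-DHL-4 (background 16.1% and 18.7% of all genes), and 5 and 2 in OCI-Ly18 (background 11% and 10.6%). With UTD cells 3 and 1 were in SU-DHL-4 (background 17.2% and 18.3%) and 3 and 4 in OCI-Ly18 (background 11.6% and 12.7%). Several of these counts lie near the background. STAT2 was higher with the drug in SU-DHL-4, with CART19 cells (log2 fold change 0.56 ± 0.06, adjusted p = 1.62e-10) and with UTD cells (log2 fold change 0.49 ± 0.07, adjusted p = 3.77e-08). It did not pass in OCI-Ly18 (log2 fold change -0.09 ± 0.06, adjusted p = 0.313 with UTD cells). That difference between the lines passed with UTD cells (0.61 ± 0.08 log2, adjusted p = 5.77e-07). SOCS1 was higher with the drug and UTD cells in both lines, by 1.27 ± 0.10 log2 in SU-DHL-4 and 0.26 ± 0.08 in OCI-Ly18 (adjusted p = 2.86e-14 and 0.0186). In SU-DHL-4 the response of SOCS1 to CART19 cells was smaller under the drug (interaction -0.88 ± 0.13 log2, adjusted p = 3.14e-05). RIGI moved up with the drug and UTD cells in SU-DHL-4 (log2 fold change 0.86 ± 0.24, adjusted p = 0.00439) and down in OCI-Ly18 (log2 fold change -0.36 ± 0.10, adjusted p = 0.0049), and the difference between the lines passed (1.25 ± 0.24 log2, adjusted p = 0.00024).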

How the data were processed

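The files were bulk RNA counts for 24 libraries of sorted lymphoma cells, 3 in each of 8 groups of line, drug and T cells. The authors deposited whole-number counts per gene for the 58735 gene IDs of their table; hg38 and DESeq2 are named per the submitters' processing notes. Aligner, counter and strandedness were not stated there, and overlapping and antisense genes may share reads. Groups came from the labels. All 47 members were in the table, and their starts and ends matched the GENCODE annotation given for GRCh38.

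Counts were tested with edgeR 4.0.16 (R 4.3.3): genes passing filterByExpr by group, TMM factors, a robust quasi-likelihood fit and Benjamini-Hochberg adjusted p-values over all genes tested, called under 0.05. Each line was fitted alone (16467 genes in OCI-Ly18, 14861 in SU-DHL-4, 8 residual degrees of freedom) and the differences between lines in a fit of both (17766 genes, 16 residual degrees of freedom). The median biological coefficient of variation was 0.0855, 0.0729 and 0.0801 in these fits. The procedure was tested on simulated counts. Replicates of a group differed by more than sampling noise in all 24 pairs. CPM used library totals of 14783781 to 20148891 counts. Where a group had 0 counts, a bound against 3 counts replaced the fitted fold change, and with 1 to 3 counts a ratio with an exact 95% interval did; both cover counting error only. Alternatives were RLE and upper quartile factors, no filter, DESeq2 1.42.0, the replicate number of a deposited sheet as a block, and each library left out. Members that passed could be named in their role group. Values per library were given for up to 6 members with the largest increases and up to 3 with the largest decreases, reaching 5 CPM, in each CART19 and tazemetostat comparison, and for a few others chosen after their values were seen; other genes came from fixed lists. The members and lists were chosen with earlier results of these data known. Single values of some listed genes are not reported here.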

Additional observations from a re-analysis of the deposited data

Results flagged for a closer look

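In each of the results given here the effect differed between the lines, or between CART19 and UTD cells, by a test of the difference itself. OAS2 in OCI-Ly18 was the one member whose response to CART19 cells differed with the drug, by 0.63 log2 (adjusted p = 0.00594).

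The response to CART19 cells under DMSO was larger in SU-DHL-4 than in OCI-Ly18 for IFIT5 (adjusted p = 4.58e-09), SAMD9L (adjusted p = 1.55e-08), IFIT2 (adjusted p = 5.17e-05), MX2 (adjusted p = 9.43e-05) and RTP4 (adjusted p = 0.0103). All 5 had at most 2 counts over the DMSO UTD libraries of SU-DHL-4. IFIT5 had 151 counts with DMSO and CART19 against 0 with DMSO and UTD in SU-DHL-4, and 1621 against 726 in OCI-Ly18. RTP4 had 68 counts with DMSO and CART19 against 0 with DMSO and UTD in SU-DHL-4, and 229 against 50 in OCI-Ly18. The level with CART19 cells was higher in OCI-Ly18 for both genes.

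With UTD cells the response to tazemetostat was larger in SU-DHL-4 for RSAD2 (3.36 ± 0.84 log2), HERC6 (2.69 ± 0.58 log2), IFIT2 (adjusted p = 0.00184), SAMD9L (adjusted p = 0.00327) and MX2 (adjusted p = 0.0126). Of these, RSAD2 lost the call without OCI-Ly18 DMSO UTD replicate 3 (adjusted p = 0.0884), SAMD9L without SU-DHL-4 TAZ UTD replicate 1 (adjusted p = 0.0531) and MX2 without SU-DHL-4 TAZ UTD replicate 3 (adjusted p = 0.0751). HERC6 averaged 1.15 ± 0.568 CPM with TAZ and UTD against 0.248 ± 0.202 CPM with DMSO and UTD in SU-DHL-4, and 2.54 ± 0.336 against 3.54 ± 1.02 CPM in OCI-Ly18 (SD, 3 libraries each).

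With CART19 cells the response to tazemetostat was larger in SU-DHL-4 for OAS3 (1.77 ± 0.39 log2), IFIT1 (1.66 ± 0.54 log2), MX2 (1.55 ± 0.32 log2) and IFI6 (1.17 ± 0.34 log2), and smaller for IFITM2 (-2.32 ± 0.58 log2). IFITM2 was low in OCI-Ly18, at 1.7 ± 0.454 CPM with TAZ and CART19 against 0.249 ± 0.182 CPM with DMSO and CART19. In SU-DHL-4 it averaged 61.6 ± 9.08 CPM with TAZ and CART19 against 46 ± 6.15 CPM with DMSO and CART19. The IFIT1 call was lost in 12 of 29 alternative settings (adjusted p up to 0.131), and the IFI6 call without OCI-Ly18 DMSO CART19 replicate 3 (adjusted p = 0.0665), without OCI-Ly18 TAZ CART19 replicate 3 (adjusted p = 0.0745) and without SU-DHL-4 DMSO CART19 replicate 1 (adjusted p = 0.0773). OAS3 averaged 8.1 ± 1.09 CPM with TAZ and CART19 against 3.23 ± 0.496 CPM with DMSO and CART19 in SU-DHL-4, and 3.01 ± 0.329 against 4.14 ± 0.346 CPM in OCI-Ly18 (SD, 3 libraries each).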

How the results depend on the processing

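No called member changed sign under any of the alternatives run, which were RLE and upper quartile factors, no filter on low counts, DESeq2, the replicate block and each library left out. The counts of members called with CART19 cells stayed within 37 to 42 higher and 0 lower. By setting, the counts that moved by over 1.5 times were these. No filter gave 2 members higher in the OCI-Ly18 interaction, against 1, and 3 lower with tazemetostat and UTD cells in SU-DHL-4, against 6, where upper quartile factors also gave 3. DESeq2 gave 2 members higher in the OCI-Ly18 interaction, and 5 responding less to tazemetostat in SU-DHL-4 than in OCI-Ly18, with UTD cells and with CART19 cells, against 3 in each. With each library left out, tazemetostat with CART19 cells in OCI-Ly18 gave 5 to 9 members higher (5 without DMSO CART19 replicate 2 or TAZ CART19 replicate 3) and 2 to 4 lower (2 without DMSO CART19 replicate 1). The OCI-Ly18 interaction gave 1 to 3 higher (3 without TAZ CART19 replicate 2), and the SU-DHL-4 interaction 0 to 1 lower (1 without DMSO UTD replicate 2). The response to CART19 cells was larger in SU-DHL-4 for 9 to 15 members (9 without SU-DHL-4 DMSO UTD replicate 1). The response to tazemetostat with CART19 cells was larger in SU-DHL-4 for 4 to 10 members (4 without OCI-Ly18 DMSO CART19 replicate 3, and 5 without either of the other 2 libraries of that group) and smaller for 2 to 7. That last comparison moved most often, and its cause was not tested; leaving out OCI-Ly18 TAZ CART19 replicate 2 or 3, or SU-DHL-4 DMSO CART19 replicate 1 or TAZ CART19 replicate 3, also gave 5 higher. Calls of single members were lost in at least 1 alternative for 1 of 39 members higher with CART19 cells under DMSO in each line, for 0 of 41 in OCI-Ly18 and 1 of 38 in SU-DHL-4 under tazemetostat, and for 4 to 7 of the 13 to 20 called in each tazemetostat comparison. A member without an adjusted p-value in an alternative was not counted as lost there, so these losses are a minimum. Replicate numbers of a deposited sheet, entered as a replicate block, gave 39 members higher with CART19 cells in OCI-Ly18 and 38 in SU-DHL-4 under DMSO, and 8 and 11 higher with tazemetostat and CART19 cells. These numbers did not pair the samples: deviations of same-numbered libraries had a median correlation of -0.034 in OCI-Ly18 (-0.294 to 0.159) and -0.001 in SU-DHL-4 (-0.216 to 0.09) over 18 pairs each. With 3 libraries per group and totals of 14783781 to 20148891 counts, members with a few counts, such as OASL, BATF2, USP18 and IFITM3, gave no firm value.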
